A study of Mus musculus with 10 samples.

Results

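At embryonic day 5.5 the anterior visceral endoderm of the mouse embryo lies on one flank of the egg cylinder, and the tissue across from it, just under the extraembryonic boundary, is where the primitive streak later forms. RNA of these opposite regions was compared on 4 of the 10 arrays of the study, all of the Affymetrix type MOE430A: 2 arrays of the anterior distal fragment (Ad, replicates 1 and 2) against 2 arrays of the posterior proximal fragment (Pp, replicates 1 and 2). These 4 arrays were chosen by their labels alone. A single whole-embryo array of the same type was used as a reference level and in the filter on signal. It added no residual degree of freedom to the linear model, so the spread came from the Ad and Pp pairs. All embryos were untreated and came from matings of B6SJLF1 with the reporter line CerlP-GFP, whose fluorescence marks the anterior visceral endoderm, so Ad and Pp carried the same genetic background. Ad was cut as the fluorescent patch with the epiblast below it, and Pp as a triangle of visceral endoderm and epiblast reaching up to the border with the extraembryonic region. Neither fragment is a pure tissue, and in such bulk samples fewer cells of a type and less RNA per cell cannot be told apart. The labels do not say whether the replicates came from separate embryos or pools, and the p-values therefore describe only the scatter of these samples, which may be technical.

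The visceral endoderm is the outer epithelium of the early embryo. It takes up nutrients, secretes serum proteins and lipoproteins, and signals to the epiblast inside. Its anterior part secretes antagonists of Nodal, Wnt and Bmp signals, while the extraembryonic ectoderm above the epiblast is a source of Bmp4 and the proximal posterior epiblast is the first site of Nodal and Wnt target genes. The study was designed to find genes higher in Ad. The opposite direction, and functions outside the known anterior markers, are described here in more detail.

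The labels were first set against the marker genes. Values are MAS5 signals in arbitrary units. Lefty1, a Nodal antagonist, had signals of 6489 and 4658 in Ad against 912 and 987 in Pp. The homeobox genes Lhx1 (2338 and 2266 against 757 and 675) and Hesx1 (1522 and 1834 against 406 and 409) were likewise separated. Cer1, whose promoter drives the reporter, had 1532 and 1413 in Ad and 899 and 861 in Pp on its brightest probe set, and 3681 and 3670 against 283 and 288 on the other. All 4 markers of the anterior visceral endoderm thus lay higher in both arrays labelled Ad than in both labelled Pp.

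Array medians ran from 590 to 644, and the Ad pair had a Spearman rho of 0.987 across probe sets against 0.972 for the Pp pair. The summed signal of 8 extraembryonic ectoderm markers was 8957 to 9418 in Ad and Pp replicate 1, whereas Pp replicate 2 reached 14879 and the whole embryo 16936. The summed signal of 10 general visceral endoderm markers was 67990 to 75578 in Ad and 59037 and 69858 in Pp. For 6 epiblast markers, of which 4 passed the filter on low signals, the sums were 25099 and 26339 in Ad and 25666 and 23736 in Pp. For 6 parietal endoderm markers, of which 4 passed the filter, they were 12806 and 12840 in Ad and 9088 and 9435 in Pp, without overlap. The decidual prolactin gene Prl8a2 stayed at 241 to 564 in the fragments against 6063 in the whole embryo, with the 564 in Ad replicate 2. Ctla2a, another decidual gene, had 1646 in that array, 275 to 497 in the other fragments and 11198 in the whole embryo. The blood genes Hba-a1, Alas2 and Ptprc were below the filter on low signals.

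Each array was put on the log2 scale with a pseudocount and centred on its median, and the fit covered 13575 probe sets, or 8708 named genes when each gene was represented by its brightest probe set. A probe set was called at a Benjamini-Hochberg adjusted p under 0.05 in limma. Of all probe sets, 22 were called higher in Ad (0.162%) and 1 lower (0.00737%), and at an unadjusted p under 0.05 the counts were 788 higher and 805 lower. Fewer probe sets were called when an Ad array was left out, and more when a Pp array was left out. The spread then came only from the pair of the other fragment, and the Ad pair was the closer. The called probe sets included the brightest ones of 17 genes higher in Ad and 1 gene lower. Where the difference had to exceed a gap, 38 probe sets (0.280%) had both Ad arrays at least 1.5-fold above both Pp arrays, and 8 (0.0589%) had both Pp arrays at least 1.5-fold above both Ad arrays. At a 2-fold gap the counts were 10 and 3.

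**Figure D1:**
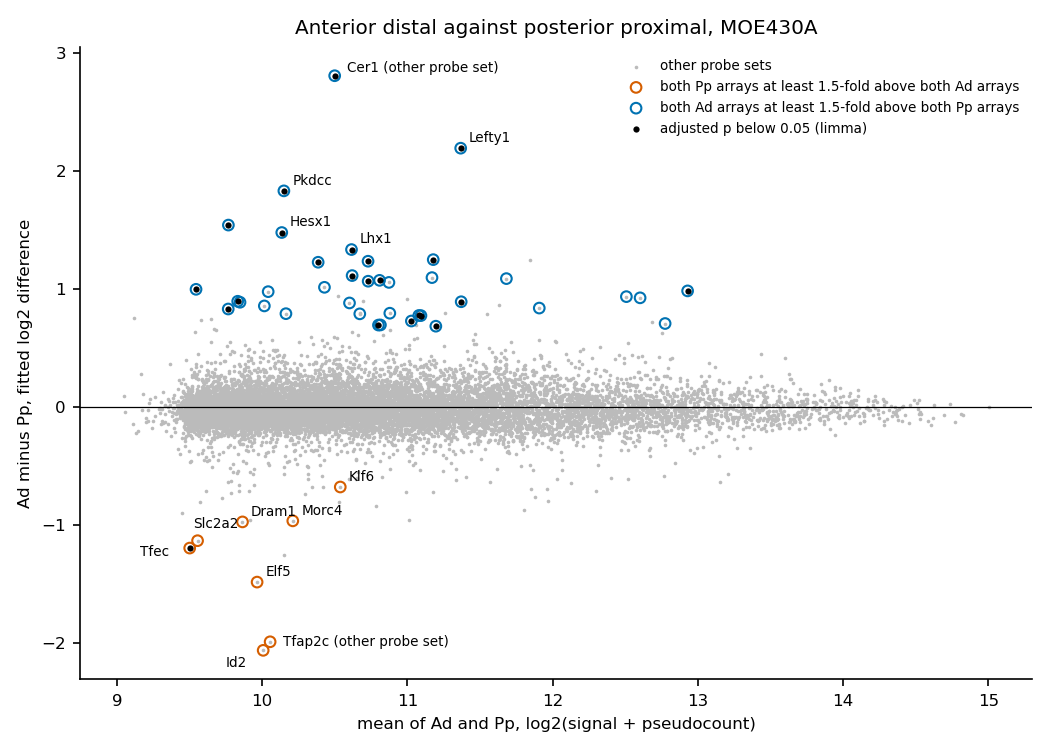
Fitted log2 difference, Ad minus Pp, of every measured probe set on MOE430A (vertical axis) against its mean log2 level in the fragments (horizontal axis). Black points passed limma's test, and rings mark gaps of 1.5-fold or more between the fragments: 38 lie above 0 and 8 below.

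Small differences went mostly the other way. The fitted difference was below 0, that is lower in Ad, for 5142 genes (59.0%), and both Pp arrays lay above both Ad arrays for 2556 genes (29.4%), against 1431 genes (16.4%) with both Ad arrays above both Pp arrays. This lean followed the centring. Over probe sets, 58.9% were lower in Ad after centring and 34.2% without it, as the median difference moved from -0.03 to 0.04 on the log2 scale, and the shares without overlap went from 29.1% and 16.2% to 12.2% and 32.3%. Shares without overlap are therefore set beside those over all genes below. Counts of genes below 0 are to be read against 59.0% of all genes, or 34.1% without centring, and counts above 0 against the remainder.

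The genes with the widest gap in favour of Pp had varied roles, from the transcription factor Tfec and the inhibitor Id2 to the glucose transporter Slc2a2 and the sterol enzyme Cyp51. Among the 20 genes named for this gap, 1 was called (Tfec), all had an unadjusted p under 0.05, and adjusted p in limma ran from 0.0238 to 0.370. Background at that unadjusted level was 6.01% of genes lower in Ad and 5.74% higher, and the 20 were chosen by the same contrast, so their p-values only describe the choice. The smallest fitted ratio of Pp to Ad among them was 1.32-fold. Signal in the whole embryo was above both Ad arrays for 19 of the 20 (the exception was Fdft1) and below both Pp arrays for 9. Pp replicate 2 was the higher Pp array in 14.

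Tfec, a basic helix-loop-helix leucine zipper factor of the MiT family, had signals of 285 and 201 in Ad, 776 and 865 in Pp and 618 in the whole embryo (adjusted p = 0.0238). Its Ad arrays lay below the filter signal of 464 and its Pp arrays well above it, without overlap. The call in limma did not survive quantile normalization (adjusted p = 0.0665) or the omission of the filter (0.0601). Leaving out an Ad array also ended it, where the spread came from the Pp pair alone. The difference was then -1.31 without Ad replicate 1 and -1.08 without Ad replicate 2. The other measured members of the MiT and pigment list had smaller differences: 5 of 6 genes, Tfec included, had a difference below 0 (4 of 6 without centring), but Tfeb was at -0.13 and the pigment genes Dct and Pmel at -0.20 and -0.16.

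Id2 encodes a helix-loop-helix protein without a DNA-binding region that blocks its partners, and it is a known target of Bmp signalling. Its signals were 264 and 225 in Ad, 1020 and 2781 in Pp and 2159 in the whole embryo (log2 difference -2.06 ± 0.38, SE; adjusted p = 0.179). This was the widest gap on the array in favour of Pp, and the Pp arrays lay 1.43 and 2.70 above the mean of Ad on the log2 scale. A second Id2 probe set read 400 and 363 against 475 and 707.

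Klf6, a zinc finger factor induced early by growth signals, had 977 and 933 in Ad and 1525 and 1650 in Pp (1.60-fold higher in Pp, adjusted p = 0.0512). Adjusted p for Klf6 in limma passed at 0.0474 when arrays were not centred, 0.0467 without the pseudocount and 0.0411 under a filter at the 60th percentile. It also passed at 0.0467 with an intensity trend and at 0.0381 with crossed replicate numbers, a pairing chosen after seeing the data. Klf6 did not pass under quantile normalization, cyclic loess, the pseudocount at the 40th percentile, no filter or the replicate number as a block. Its difference was -0.73 without Pp replicate 1 and -0.62 without Pp replicate 2. Another Klf6 probe set on MOE430A was at -0.04, while 2 on the companion array type MOE430B were at -0.70 and -0.83. Sox17, an HMG-box factor of endoderm, had 1283 and 919 in Ad and 1840 and 2252 in Pp (1.79-fold, adjusted p = 0.170), with 2593 in the whole embryo. Its second probe set was at -0.23. Mixl1, a homeobox gene of the streak, had 612 and 493 in Ad against 976 and 940 in Pp, and 613 in the whole embryo.

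Chromatin and nuclear proteins formed a further group. Morc4, a nuclear ATPase of the MORC family, had 623 and 607 in Ad and 1121 and 1635 in Pp (1.95-fold, adjusted p = 0.137). Mphosph8, a chromodomain subunit of the HUSH silencing complex, had 4412 and 4225 against 5517 and 5497, and its second probe set was at -0.35. The Pp arrays of Mphosph8 agreed closely with each other, so that a ratio of 1.32 was enough for a clear gap. Ppig, a cyclophilin of the nucleus, had 1533 and 1651 against 2353 and 2965, but its probe set on MOE430B was at 0.05.

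Among membrane and lysosomal proteins, Slc2a2, the low-affinity glucose transporter also known as Glut2, had signals of 273 and 260 in Ad, 625 and 1077 in Pp and 580 in the whole embryo (adjusted p = 0.151). Dram1, a lysosomal membrane protein that promotes autophagy, had 472 and 393 against 922 and 1134 (adjusted p = 0.0528 in limma). It passed with no centring (0.0474), no pseudocount (0.0424) and an intensity trend (0.0405), but not under quantile normalization or with no filter. Timd2, a receptor for ferritin, had 971 and 748 against 1349 and 1522 on its brightest probe set and a difference of -0.16 on its other. Dpp4, a dipeptidyl peptidase of the apical membrane, had 877 and 903 against 1266 and 1509. These 4 genes were named for the gap in favour of Pp, so that both Pp arrays lay above both Ad arrays follows from the choice. In each of the 4 Pp replicate 2 was the higher Pp array. Eps8, which caps actin filaments in microvilli, had 533 and 515 against 726 and 839, with a second probe set at 0.04. Ccn2, a secreted matrix protein and target of the Hippo pathway, had 375 and 560 against 864 and 751.

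Some enzymes were in the group as well. Gstm1, a glutathione transferase, had 3107 and 2331 in Ad and 4019 and 5037 in Pp (1.69-fold, adjusted p = 0.216). Its other probe sets were at -0.12 to -0.69, and probe sets of this family can share signal with related transcripts. Bcat1, a cytosolic branched-chain aminotransferase, had 2728 and 3132 against 3960 and 4293, with -0.22 on its second probe set and -0.28 on MOE430B. The sterol enzymes Cyp51 and Fdft1 are described with their pathway, Elf5 with the extraembryonic ectoderm and H2-K1 with antigen presentation.

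**Figure D2:**
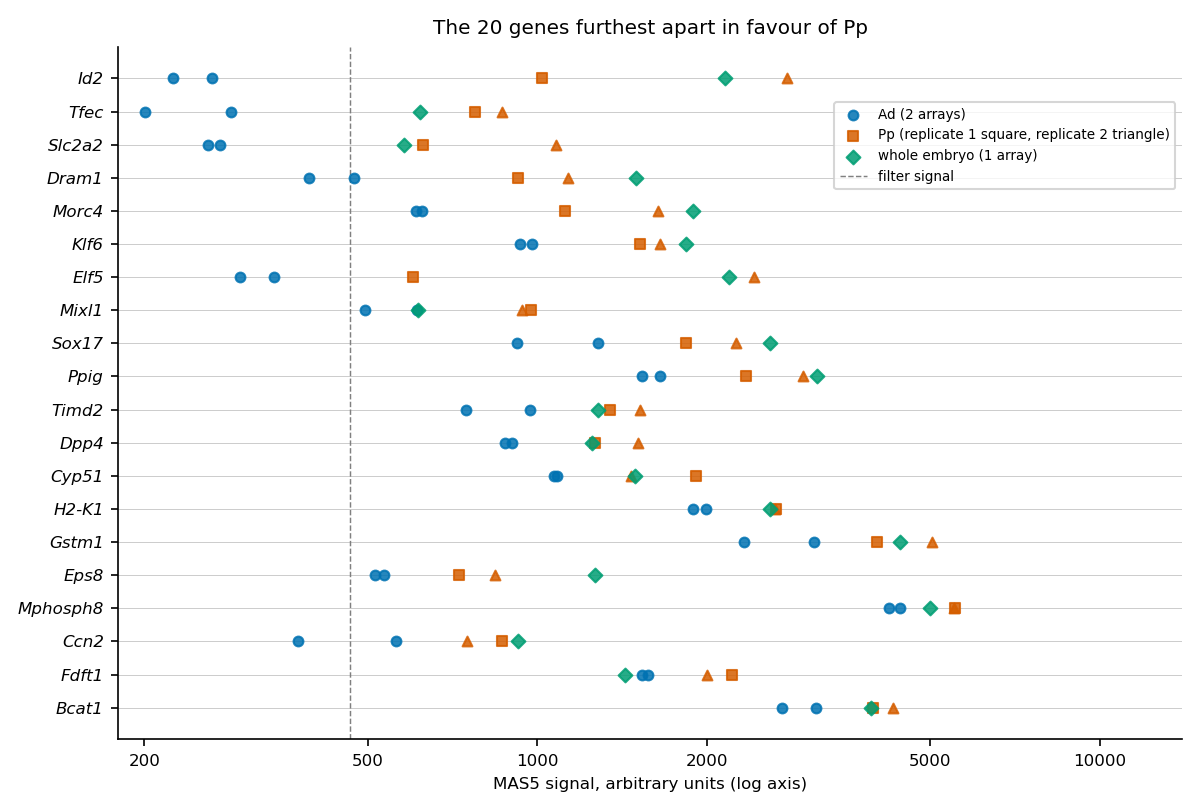
MAS5 signal (log axis) of the 20 genes with the widest gap in favour of Pp, 1 point per array: Ad circles, Pp replicate 1 square, Pp replicate 2 triangle, whole embryo diamond. The dashed line is the filter signal of 464, and Id2 and Elf5 show the widest spacing between their 2 Pp arrays.

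Cholesterol synthesis was the list with the lowest median difference of the 59 lists examined. The pathway turns acetyl-CoA through mevalonate and squalene into sterols, and many of its genes are known targets of the factor Srebf2, which binds with the CCAAT-box factor NF-Y. Of 19 measured genes, 17 had a difference below 0 and 14 had both Pp arrays above both Ad arrays (73.7%, against 29.4% of all genes). The median was -0.25, against -0.03 for all genes. None was called in limma (0 higher and 0 lower), and 11 had an unadjusted p under 0.05 in favour of Pp and 2 in favour of Ad. Over all genes these shares were 6.01% and 5.74%. Without centring the counts were 15 of 19 below 0 and 12 of 19 without overlap (63.2%, against 12.3% of all genes).

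Cyp51, the sterol demethylase, had signals of 1082 and 1072 in Ad and 1912 and 1467 in Pp (1.52-fold, adjusted p = 0.186). Fdft1, squalene synthase, had 1535 and 1572 against 2222 and 2000 (1.37-fold, adjusted p = 0.144). Neither overlapped, and in both Pp replicate 1 was the higher array. The isoprenoid enzymes upstream had wider Ad pairs: Fdps had 2383 and 3051 against 3703 and 3140, and Idi1 had 1874 and 2405 against 3193 and 2259, where Pp replicate 2 fell inside the Ad range. Late sterol enzymes were more even. Sc5d had 866 and 989 against 1221 and 1184, with a dimmer probe set at 0.085, Dhcr7 had 943 and 1009 against 1269 and 1174, and Hsd17b7 had 889 and 886 against 986 and 988. The regulator Srebf2 itself had 1730 and 1541 against 1831 and 1856 (log2 difference -0.22).

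The exceptions lay at the entry to mevalonate and at 2 other genes. Hmgcs1, which makes the substrate of the rate-limiting reductase, was at -0.14 with overlapping arrays, and turned to 0.053 without Pp replicate 1. Mvk and Mvd were at -0.04 and -0.07, and both turned positive without centring (0.029 and 0.0020). A second Mvd probe set was at -0.22 with centring, and there both Pp arrays lay above both Ad arrays. Ebp, a sterol isomerase, went the other way with 3886 and 3477 in Ad and 2821 and 2933 in Pp, and so did Stard4, a sterol carrier, with 1072 and 982 against 749 and 736. On MOE430B a Stard4 probe set was again higher in Ad, with 1748 and 1715 against 991 and 1157. Taken singly, Pp replicate 1 had a list median of 0.29 above the Ad mean and Pp replicate 2 one of 0.24, and Pp replicate 1 lay above both Ad arrays for 16 of 19 genes (84.2%, against 44.6% of all genes).

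**Figure D3:**
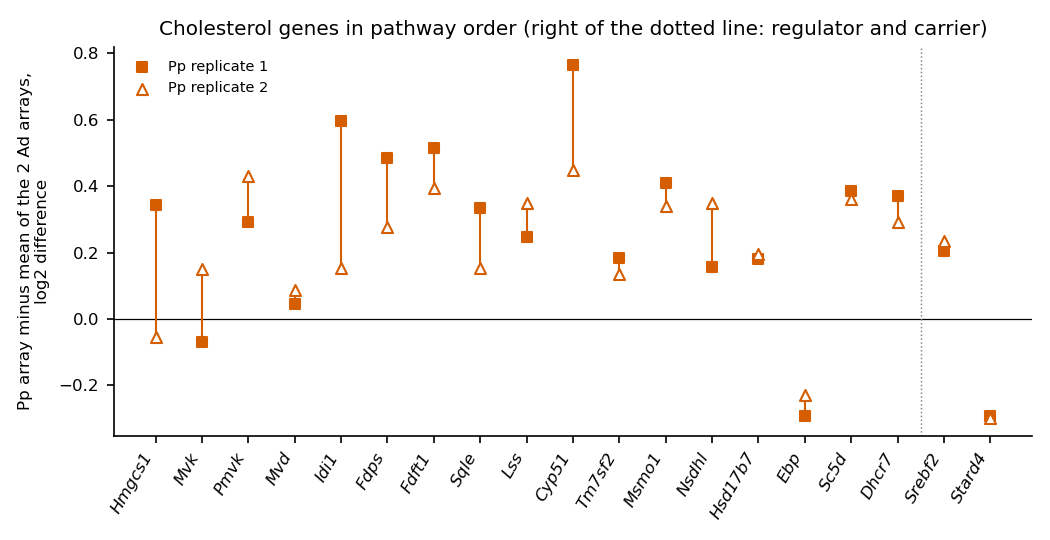
Log2 difference of each Pp array from the mean of the 2 Ad arrays for the 19 cholesterol genes (horizontal axis, in pathway order), with a line joining the replicates. Both Pp points lie above 0 for 15 genes and both lie below 0 for Ebp and Stard4, while Hmgcs1 and Mvk straddle it.

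The upstream sequences of these genes were read to show what the list shares apart from its signal. RefSeq promoters (assembly GRCm38.p6) were available for 15 of the 19, and the 250 bases before the annotated start were searched on both strands. The NF-Y letters CCAAT, or on the opposite strand ATTGG, occurred in 15 of 15, against 37.5% of 27025 promoters and 40.6% of the 7046 that belonged to measured genes. The sterol element TCACNCCAC (GTGGNGTGA) occurred in 1 of 15, against 1.22% of all promoters and 1.33% of those of measured genes, and the E-box CACGTG in 3 of 15, against 6.86% of all promoters and 10.2% of those of measured genes. Ebp, which went the other way, and Mvk and Mvd also held CCAAT. Of 10 promoters of the fatty acid synthesis list, 6 held CCAAT. A match is a description of letters and not a site. The sequences are given 5′ to 3′ on the gene's strand for the gene with the largest difference (Cyp51, chr5:4104698-4104947, minus strand), an isoprenoid enzyme with 2 matches (Idi1, chr13:8885356-8885605, plus strand) and the only gene of the list that held the sterol element (Hmgcs1, chr13:119690101-119690350, plus strand). Capitals mark the NF-Y letters on either strand and, in Hmgcs1, also the sterol element.
Cyp51: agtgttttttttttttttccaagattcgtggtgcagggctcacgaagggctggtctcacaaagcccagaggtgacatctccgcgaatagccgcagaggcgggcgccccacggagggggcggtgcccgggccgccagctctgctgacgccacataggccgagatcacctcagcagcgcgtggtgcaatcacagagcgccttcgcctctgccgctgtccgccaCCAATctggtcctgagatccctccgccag
Idi1: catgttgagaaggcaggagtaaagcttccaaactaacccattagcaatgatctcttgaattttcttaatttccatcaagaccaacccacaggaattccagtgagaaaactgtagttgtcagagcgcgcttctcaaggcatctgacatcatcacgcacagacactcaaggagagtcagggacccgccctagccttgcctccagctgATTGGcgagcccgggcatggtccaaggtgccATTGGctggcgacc
Hmgcs1: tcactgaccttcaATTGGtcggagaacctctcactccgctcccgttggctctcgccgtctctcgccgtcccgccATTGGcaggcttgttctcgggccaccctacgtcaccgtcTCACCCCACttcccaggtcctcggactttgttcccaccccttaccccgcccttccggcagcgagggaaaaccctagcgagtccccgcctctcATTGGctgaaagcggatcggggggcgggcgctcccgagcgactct
In Cyp51 the match began 29 bases before the start, and in Idi1 the nearer began 14 bases before it.

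Genes of fatty acid synthesis and desaturation leaned the same way by less. Of 13 measured, 11 had a difference below 0 (10 of 13 without centring). Both Pp arrays lay above both Ad arrays for 8 (61.5%, against 29.4% of all genes), and for 6 without centring (46.2%, against 12.3%). In limma 0 were called and 5 had an unadjusted p under 0.05 in favour of Pp, against a share of 6.01% over all genes. Scd1, a stearoyl-CoA desaturase, had 2885 and 2764 in Ad and 3459 and 3747 in Pp (1.31-fold, adjusted p = 0.190). The elongase genes Elovl1 and Elovl6 were at -0.40 and -0.26, and a second Elovl6 probe set was at 0.20. The desaturase gene Fads2 was at -0.22. Fatty acid oxidation leaned towards Ad: 12 of 17 had a difference above 0 and 6 had both Ad arrays above both Pp arrays (35.3%, against 16.4% of all genes). Without centring these counts were 16 and 9, the latter 52.9% against 32.3% of all genes. The acyl-CoA dehydrogenase gene Acadl had 1657 and 1605 in Ad and 1106 and 1075 in Pp (adjusted p = 0.129), and the carnitine carrier gene Slc25a20 had 1731 and 1535 against 964 and 1358, with a second probe set at -0.0033.

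Glycolysis and glucose transport showed many separations of small size. Of 18 measured, 13 had both Pp arrays above both Ad arrays (72.2%, against 29.4% of all genes) and the median was -0.10. Without centring the count was 7 (38.9%, against 12.3% of all genes). Its widest differences included the phosphofructokinase genes Pfkl and Pfkp. Pfkl had 7550 and 6770 in Ad and 8314 and 9173 in Pp, with a second probe set at -0.53, and Pfkp had 954 and 918 against 1053 and 1482, with a second probe set at 0.12. The aldolase gene Aldoc had 857 and 1058 against 1169 and 1280. None of the 18 was called in limma, and 5 had an unadjusted p under 0.05 in favour of Pp and 2 in favour of Ad. The shares over all genes were 6.01% and 5.74%.

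Genes that charge tRNA and build ribosomes had differences of similar size. Of 16 tRNA synthetase genes, 14 had a difference below 0 (87.5%, against 59.0% of all genes). Without centring the count was 9 (56.25%, against 34.1%). Rars, which charges arginine tRNA, had 5154 and 4947 in Ad and 6319 and 6193 in Pp (1.29-fold, adjusted p = 0.170), the widest of them. Sars, Cars and Eprs were at -0.27, -0.25 and -0.23, and Wars at 0.14. Second probe sets of Cars and Eprs were at 0.00093 and 0.20. For ribosome biogenesis 18 of 23 were below 0 (16 without centring), led by Wdr12 with 3779 and 4107 against 4852 and 4620. Ribosomal proteins themselves were split, with 10 of 24 below 0 and a median of 0.01. Families grouped by symbol stem had medians of similar size, and those named here lay near the ends of the 141 stems with at least 8 genes: 8 of 8 genes with the stem Mcm, most of them helicase subunits of DNA replication, were below 0 with a median of -0.12 (7 of 8 without centring), while 9 of 10 with the stem Ndufb, subunits of respiratory complex I, were above 0 with a median of 0.17 (10 of 10 without centring). Mcm6 was at -0.22 and Ndufb9, with 4984 and 4920 in Ad and 3242 and 3966 in Pp, at 0.37. Another Mcm6 probe set was at 0.073, and others of Ndufb9 were at 0.25 and -0.13. The wider lists did not lean as far: oxidative phosphorylation had 14 of 31 genes below 0, and DNA replication had 24 of 32 below 0 but 14 of 32 without centring, where its median turned from -0.05 to 0.02. Over the stems, no family median reached the size of the list median of cholesterol synthesis. Psmb7, a proteasome subunit, had 5784 and 5248 against 7159 and 7017, but 15 of 29 proteasome genes were below 0 and 14 above.

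**Figure D4:**
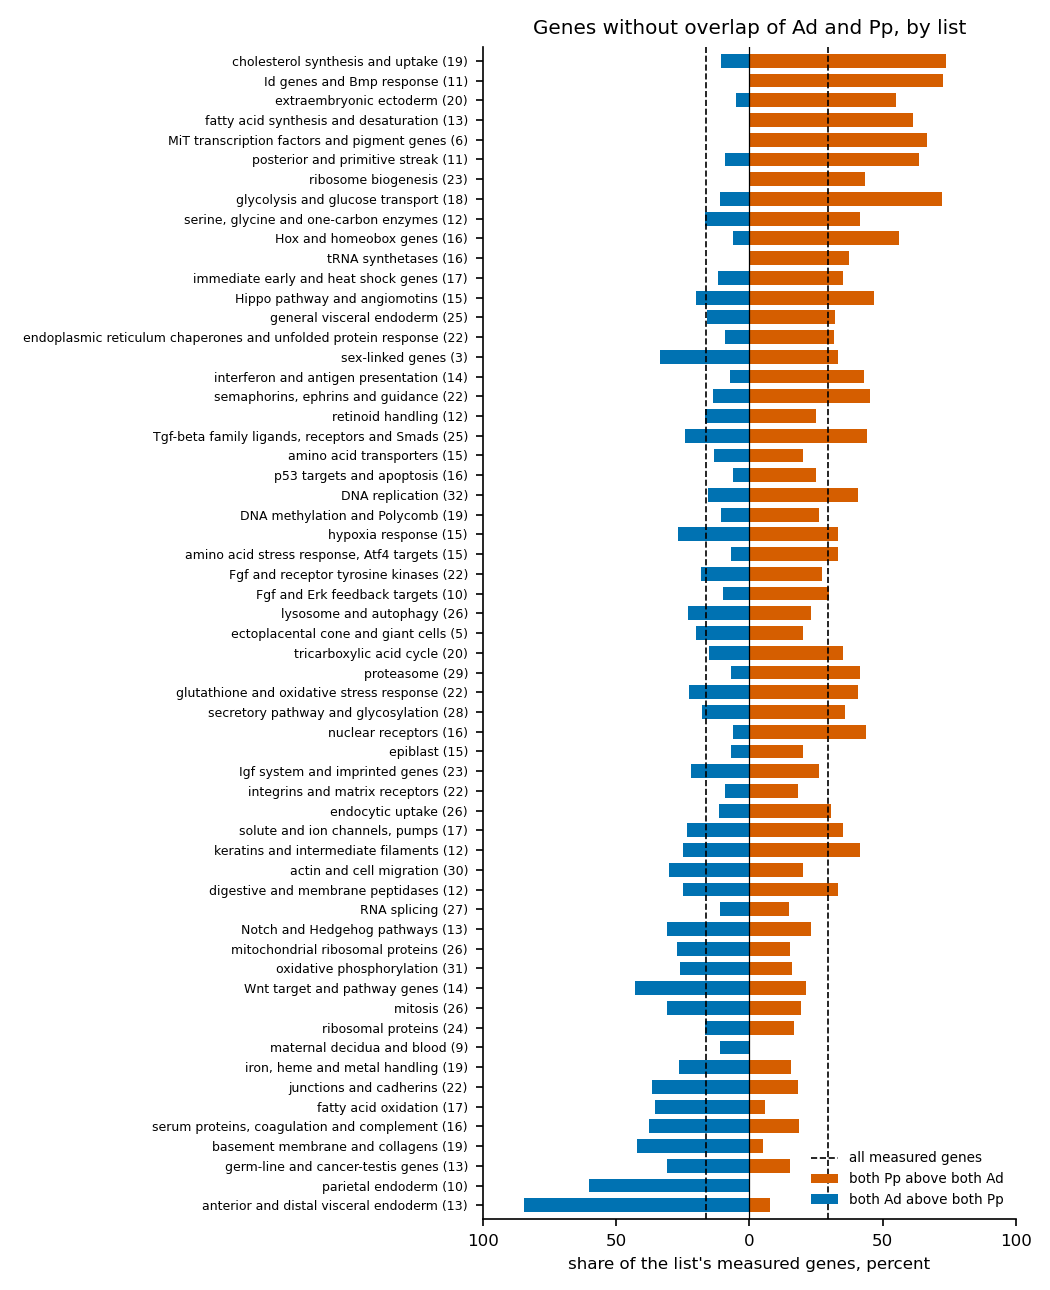
Share of each list's measured genes whose Ad and Pp arrays did not overlap (horizontal axis, percent): orange to the right for both Pp arrays above both Ad arrays, blue to the left for the reverse, with the number measured in brackets. Dashed lines give the shares over all genes, 29.4% and 16.4%, and lists are ordered by their median difference, from cholesterol synthesis at the top to the anterior visceral endoderm at the bottom.

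Targets of Bmp signalling were followed through the Id genes and their partners. Of 11 measured, 10 had a difference below 0 (10 without centring), and 8 had both Pp arrays above both Ad arrays (72.7%, against 29.4% of all genes). In limma 0 were called, and 3 had an unadjusted p under 0.05 in favour of Pp, against a share of 6.01% over all genes. The count of 8 was 5 without centring (45.5%, against 12.3%) and 5 with cyclic loess. Smad7, an inhibitory Smad induced by the pathway, had 804 and 805 in Ad and 1038 and 1201 in Pp (1.36-fold, adjusted p = 0.190), and a probe set on MOE430B was at -0.80. Id1 had 1167 and 1430 against 1348 and 1723, and Id3 had 3657 and 4377 against 4700 and 4392. Both overlapped or nearly touched, unlike Id2. Without Pp replicate 2 the list kept 10 of 11 below 0 with a median of -0.15. The Id2 promoter is shown because it held the GC-rich letters GGCGCC (the same on both strands), to which Smad proteins can bind and which occurred in 3 of 7 promoters of this list, in 10.8% of all promoters and in 19.5% of those of measured genes. It lies at chr12:25096093-25096342 on the minus strand, with the match in capitals.
Id2: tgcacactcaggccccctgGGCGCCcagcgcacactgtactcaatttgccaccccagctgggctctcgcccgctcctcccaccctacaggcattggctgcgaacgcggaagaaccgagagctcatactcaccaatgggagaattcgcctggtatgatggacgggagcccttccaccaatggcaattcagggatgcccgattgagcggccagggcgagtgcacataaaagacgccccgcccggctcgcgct
The match began 231 bases before the annotated start.

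The Pp arrays differed from each other in genes of the extraembryonic ectoderm, the tissue that borders the fragment, whose list median above the mean of Ad was 0.04 in replicate 1 and 0.26 in replicate 2. The medians of the general visceral endoderm list were further apart, at -0.11 and 0.15. Taken singly, Pp replicate 2 was at least 1.5-fold above both Ad arrays for 54 genes (0.620%) and Pp replicate 1 for 9 (0.103%), of which 7 were shared. For 33 of the 47 genes that met this in Pp replicate 2 alone, the whole embryo was also at least 1.5-fold above both Ad arrays. The genes named next were chosen after their values were seen. Plet1, a surface protein of trophoblast progenitors, had 386 and 367 in Ad, 368 and 1421 in Pp and 2179 in the whole embryo. Gjb5, a trophoblast connexin, had 491 and 466, then 454 and 1593, then 2639. The serine protease gene Htra1 had 443 and 421, then 547 and 2766, then 3131. In these genes Pp replicate 1 was level with Ad, or nearly so, and Pp replicate 2 was level with the whole embryo or between. Upp1, a uridine phosphorylase, had 1451 and 910 in Ad, 1272 and 4188 in Pp and 2636 in the whole embryo.

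A few genes did not share that profile. Vta1, a cofactor of the endosomal sorting machinery, had 7564 in Pp replicate 2 and 2118 to 2369 in the other fragments and the whole embryo, and Metap2, a methionine aminopeptidase, had 14130 there and 7014 to 8153 elsewhere. In the reverse case Nckap1, a subunit of the actin-regulating WAVE complex, had 9015 in Pp replicate 1 against 3985 in its partner, 4280 and 3882 in Ad and 5221 in the whole embryo. Each of these rests on a single array.

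Within the extraembryonic ectoderm list, 17 of 20 genes had a difference below 0 with a median of -0.17 (16 of 20 without centring), and 13 of 20 with a median of -0.04 when Pp replicate 2 was left out. Elf5, an Ets factor of trophoblast stem cells, had 340 and 296 in Ad and 601 and 2432 in Pp, and by brightest probe sets was the member whose Pp replicate 1 stood furthest above Ad. Esrrb, a nuclear receptor of the same cells, had 416 and 443 against 525 and 752. Bmp4 had 744 and 605 against 573 and 2359, and its difference turned to 0.10 without Pp replicate 2. Tfap2c, an AP-2 factor of trophoblast, depended on the probe set. Its brightest had 1256 and 1052 in Ad and 1295 and 1241 in Pp. A dimmer one had 226 and 309 against 935 and 2955, with 4455 in the whole embryo, and was the only one of the 8 probe sets with a 1.5-fold gap in favour of Pp that was not the brightest of its gene. Another had 564 and 556 against 648 and 1165. The part of these markers in the other results was not tested. Without Pp replicate 2, cholesterol synthesis had 16 of 19 genes below 0 with a median of -0.29, against 4917 of 8669 of all genes. Leaving out that array cannot decide the question, since Elf5 and Esrrb were also above both Ad arrays in Pp replicate 1.

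**Figure D5:**
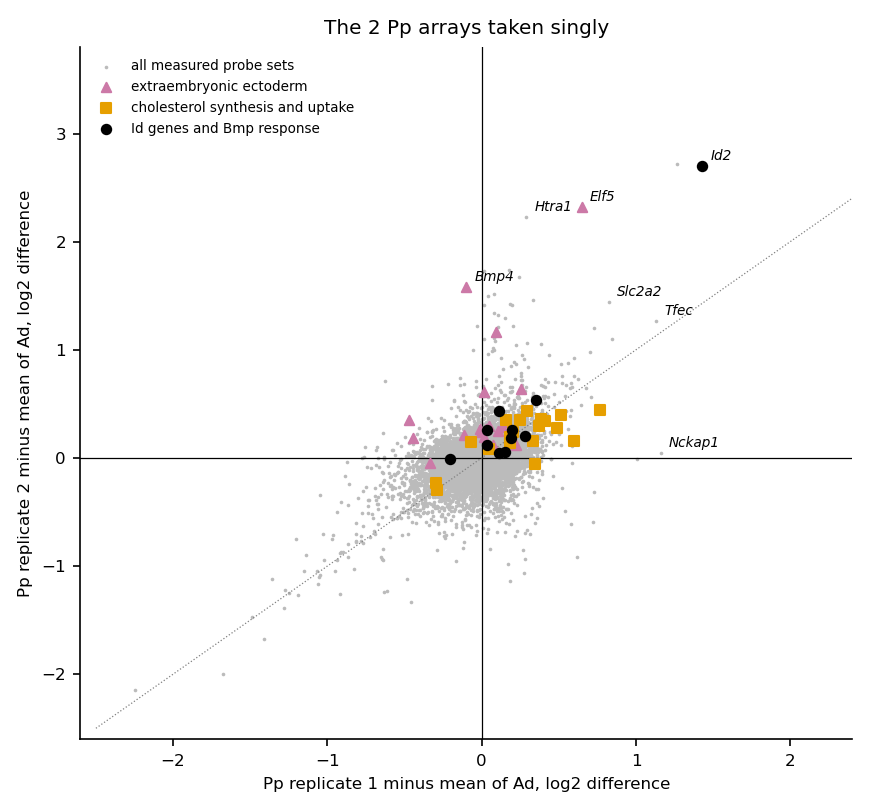
Each point is a probe set, placed by the log2 difference of Pp replicate 1 (horizontal axis) and of Pp replicate 2 (vertical axis) from the mean of the 2 Ad arrays; the dotted line marks equal values. Extraembryonic ectoderm genes (triangles) scatter upwards along the vertical axis, with Bmp4 left of 0, while cholesterol genes (squares) lie in the upper right with both replicates above Ad for 15 of 19.

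Imprinted genes and the Igf system were divided between the fragments. Of 23 measured, 12 had a difference below 0 (52.2%, against 59.0% of all genes) and 11 above. Without centring the counts were 7 (30.4%, against 34.1%) and 16. Phlda2, an imprinted regulator of placental growth, had 1342 and 1371 in Ad, 1760 and 2919 in Pp and 6298 in the whole embryo. The growth factor gene Igf2 had 1313 and 1131 in Ad and 1241 and 2755 in Pp, with Pp replicate 1 inside the Ad range. On the Ad side, Grb10, an adaptor that restrains growth, had 8883 and 8210 against 4918 and 5425 (1.55-fold, adjusted p = 0.0909), and passed with no centring (0.0474), though a dimmer Grb10 probe set was at -0.04. Mest, a hydrolase-like protein, had 3234 and 3435 against 1814 and 2133 (1.54-fold, adjusted p = 0.128). Both of these separated without overlap.

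Genes of the general visceral endoderm were also divided, with 14 of 25 below 0 (56%, against 59.0% of all genes) and 11 above. Without centring the counts were 13 and 12, with 52% below 0 against 34.1% of all genes. Without Pp replicate 2 the count below 0 was 9 of 25, and the median turned from -0.07 to 0.11. Lower in Ad, Apoc2, an apolipoprotein, had 5226 and 3938 against 5241 and 8561, and the co-activator gene Cited1 had 1713 and 1465 against 1788 and 2640. Lrp2, the endocytic receptor megalin, had 2308 and 2032 against 2508 and 2543, and a second probe set at -0.42. Higher in Ad, the retinol carrier gene Rbp4 had 5237 and 4550 against 2833 and 3373, the fetal serum protein gene Afp had 6690 and 6410 against 4333 and 4888, and the forkhead gene Foxa1 had 676 and 622 against 447 and 318. On these brightest probe sets all 3 separated without overlap and had adjusted p of 0.208, 0.208 and 0.273 in limma. Their whole-embryo signals of 1556, 2596 and 360 were below those of Ad. Another Afp probe set overlapped, with 3834 and 2867 in Ad and 2417 and 3014 in Pp. A further Afp probe set did not overlap, with 6031 and 5461 against 4134 and 4643.

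Of antigen presentation genes, the class I heavy chain gene H2-K1 had 1894 and 1997 in Ad and 2656 and 2642 in Pp (1.39-fold, adjusted p = 0.119), and its other probe sets were at -0.31 and -0.61. H2-D1, a second heavy chain, had 1233 and 1299 against 1588 and 1672, and the factor gene Irf1 had 2065 and 1754 against 2457 and 2501. Probe sets of the class I genes can read each other's transcripts. The list as a whole had 9 of 14 below 0 (64.3%, against 59.0% of all genes). Without centring it had 6 (42.9%, against 34.1%), and its median turned from -0.06 to 0.01.

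Genes of the posterior epiblast and streak were followed next. Of 11 measured, 9 had a difference below 0 (8 without centring) and 7 had both Pp arrays above both Ad arrays (63.6%, against 29.4% of all genes). Without centring that count was 3 (27.3%, against 12.3%). Evx1, a homeobox gene of the streak, had 385 and 460 in Ad and 590 and 601 in Pp, and Tdgf1, the Nodal co-receptor, had 3383 and 3395 against 4509 and 3775. Of the listed members Lhx1 was called, in the direction of Ad.

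On the Ad side, genes outside the anterior list included steps of Wnt and growth factor signalling. Porcn, the acyltransferase that lipidates Wnt proteins, had 1891 and 1624 in Ad and 624 and 773 in Pp (2.02-fold, adjusted p = 0.0512). Gpc4, a glypican of the cell surface, had 9179 and 7874 against 4486 and 3823 (1.90-fold, adjusted p = 0.0551), and its MOE430B probe set was at 1.03. Bmp2 had 566 and 424 in Ad, 156 and 182 in Pp and 2677 in the whole embryo (adjusted p = 0.0998), and is also on the list of maternal decidua genes. Cyp26a1, which degrades retinoic acid, had 8574 and 8156 against 4057 and 5522. None of these 4 was called in the fit as reported. Porcn and Gpc4 passed in limma when arrays were not centred (0.0263 and 0.0373), under a filter at the 60th percentile (0.0373 and 0.0477) and with an intensity trend (0.0405 and 0.0455). Neither passed under quantile normalization or cyclic loess.

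Among genes that were called higher in Ad, Ddc, which decarboxylates aromatic amino acids to monoamines, had 2763 and 2539 in Ad and 1383 and 1345 in Pp (1.71-fold, adjusted p = 0.0297). Chga, a core protein of secretory granules, had 1021 and 865 against 377 and 400 (adjusted p = 0.0416), a call that ended with the pseudocount at the 40th percentile (0.0678) and with no filter (0.0688). The secreted ribonuclease gene Rnase4 had 2040 and 2111 against 1133 and 1107 (1.62-fold, adjusted p = 0.0337). Tmem109, a membrane protein, was 1.71-fold higher in Ad (adjusted p = 0.0245), with its other probe sets at 0.70 and -0.05, and Fam107b was 1.61-fold higher (adjusted p = 0.0333), with others at 0.43 and -0.14. Prss12, a secreted serine protease, had 4566 and 3711 against 1800 and 2294 and was not called (adjusted p = 0.137). The calls of the 5 genes named here as called ended when either Ad array was left out, where the spread came from the Pp pair alone. Their log2 differences then ran from 0.67 to 0.92.

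Some structural genes were higher in Ad. The simple keratin genes Krt8 and Krt18 had 7122 and 6791 against 3793 and 5272, and 7171 and 7200 against 4566 and 5868. In both the Ad pair was tight and the Pp pair wide, and adjusted p was 0.331 and 0.362 in limma. The keratin list as a whole was split, with 7 of 12 below 0 (58.3%, against 59.0% of all genes), and 4 without centring. Of 19 genes with the stem Krt 13 were below 0, as were 16 of 25 with the stem Col, again against 59.0% of all genes. Of 19 basement membrane and collagen genes, 13 had a difference above 0 and 8 had both Ad arrays above both Pp arrays (42.1%, against 16.4% of all genes). Without centring these counts were 17 and 9, the latter 47.4% against 32.3% of all genes. The laminin genes Lamc1 (1762 and 1832 against 1122 and 938) and Lamb1 (3428 and 3436 against 2346 and 2243) had the largest differences, followed by the collagen gene Col4a2 with 2255 and 1897 against 1291 and 1445. In the whole embryo these 3 genes had signals of 3128, 3472 and 3341, at or above both Ad arrays. The leading members are also markers of parietal endoderm, whose list had 9 of 10 genes above 0 and a median of 0.35. In that list 6 genes had both Ad arrays above both Pp arrays (60%, against 16.4% of all genes), and 8 without centring (80%, against 32.3%). The sums over 6 markers of that tissue were 12806 and 12840 in Ad, 9088 and 9435 in Pp and 17302 in the whole embryo. They include Plat and Thbd, which were below the filter, and the part of these markers in these differences was not tested. None of the structural genes named here was called.

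The companion arrays gave a partial check, since MOE430B carries further probe sets for some of the same genes. It was not treated as a second set of samples. On 100 probe sets printed on both array types, each MOE430A fragment array correlated best with 1 MOE430B array of the same fragment (Spearman rho 0.866 and 0.800 for Ad, 0.448 and 0.647 for Pp), and the labels do not say whether RNA was shared. Of the genes described above, probe sets there lay in the same direction as the brightest MOE430A probe set for Klf6, Bcat1, Smad7, Stard4, Gpc4, Sc5d, Lrp2, Pfkp, Elovl1, Elovl6, Esrrb and Ddc, though for Ddc the difference was 0.022. For Dpp4 (-0.39 and 0.13) and Hsd17b7 (-0.35 and 0.19) they were split. For Ppig, Pfkl and Lamb1 the direction differed, with 0.05, 0.06 and -0.14.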

How the data were processed

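The deposited values are MAS5 signals, an array intensity on a linear scale, per the submitters' processing notes; its version and scaling target were not given in the sources used here. Of 22626 probe sets left after 64 controls, 13575 with a mean log2 level over 5 arrays above the 40th percentile (signal 464) were kept. Values were log2(signal + 248), the pseudocount being the 20th percentile, centred on each array's median, and fitted with limma 3.58.1 in R 4.3.3 (groups Ad, Pp and whole embryo, 2 residual degrees of freedom, Benjamini-Hochberg threshold 0.05). A fold change is on the scale with the pseudocount and understates changes of dim genes; none is given where a group's mean lay under the filter signal. Only 2 arrays per fragment limit the precision.

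A gap is the lowest array of one fragment minus the highest of the other. Each gene was represented by its brightest probe set, and 59 gene lists were used. Genes were named if called lower in Ad, among the 20 widest gaps for Pp or the 10 for Ad outside the anterior list, if called in a list or among its 4 largest differences, if a cell type marker, or if in the cholesterol list. Ddc, Chga and other genes called higher in Ad, and the genes of single Pp arrays, were added after their values were seen. Members and lists were chosen with earlier results of these data known. Gene names came from the platform annotation (20380 probe sets with 1 symbol, 691 with several, 1555 with none). Alternatives were other normalizations, pseudocounts, filters, an intensity trend, the replicate number as a block and each array left out.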

Additional observations from a re-analysis of the deposited data

How the results depend on the processing

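Over 1485 recomputed values of 100 named genes, 1321 kept their direction and their side of the threshold, 133 gained a call, 24 lost one and 7 changed sign. Most gained calls came from fits without a Pp array, and most lost ones from fits without an Ad array. The main counts were 22 probe sets called higher in Ad and 1 lower. Without centring they were 43 and 3 (46 calls, of which 23 were shared with the reported ones), and probe sets without overlap went to 4386 higher in Ad and 1662 higher in Pp, from 2203 and 3954. Calls lower in Ad were 3 with no pseudocount and 3 with an intensity trend. They were 0 in limma under quantile normalization and 0 with no filter, with 693 and 899 at an unadjusted p under 0.05. With no filter 3740 probe sets lay higher in Ad without overlap. With the filter at the 60th percentile 5 probe sets had the 1.5-fold gap for Pp and 2536 lay higher in Pp without overlap. Leaving out each array in turn gave 1 to 465 calls higher in Ad and 0 to 342 lower, 51 to 78 and 11 to 82 probe sets with a 1.5-fold gap for Ad and Pp, and 3533 to 4281 and 5586 to 6479 without overlap for Ad and Pp. A gap over fewer arrays is easier to pass. The low ends of the calls came without an Ad array and the high ends without a Pp array. In such a fit the spread came only from the pair of the other fragment. The Ad pair was the closer (Spearman rho 0.987 against 0.972 for the Pp pair), so calls gained or lost there do not describe single genes. Tfec could not be given without a Pp array, since it then fell under the filter.

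The replicate numbers share only a number: deviations of same-numbered arrays correlated at -0.242. With the number as a block, 24 probe sets were called, 23 higher and 1 lower in Ad, of which 19 were shared. Among the genes named, the calls of Chga (adjusted p = 0.0543), Fam107b and Rnase4 (both 0.0640) ended with the block, and Gpc4 passed (0.0230). The crossed pairing, chosen after seeing the data, gave 37 and 10.

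Signs changed for 6 genes. Over the arrays left out in turn, log2 differences ran from -1.58 to 0.10 for Bmp4, -0.15 to 0.070 for Mvk, -0.34 to 0.053 for Hmgcs1, -0.077 to 0.63 for Prl8a2 and -0.57 to 1.301 for Ctla2a; without centring Mvd was at 0.0020 and Mvk at 0.029. Of 649 list medians, 116 moved by more than the spread between replicates.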
